A study of Mus musculus with 24 samples.

Results

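The IL-1 family joins cytokines that are released by stressed or inflamed cells to a set of related receptors. Here its expression was followed in type 2 alveolar epithelial cells (AEC2s), the surfactant-producing progenitors of the alveolus. The genes were chosen by name. They are 5 ligand genes, Il1a, Il1b, Il1rn, Il18, and Il33, and 3 receptor genes, Il1r1, Il1rap, and Il1rl1. All 8 were found in the count table, each as 1 of its 55421 Ensembl mouse genes, and all 8 passed the filter on low counts. The other 13 IL-1 family genes were read beside them, and 6 of these passed the filter.

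AEC2s came from wild-type mice (Krt8+/+, labeled WT) or from mice with a global deletion of keratin 8 (Krt8–/–, labeled KO), so the deletion was not restricted to the epithelium. RNA was taken on day 0, directly after isolation, and after 1, 3, and 7 days in 2D culture, in which AEC2s pass through a keratin-high transitional state toward an AEC1-like state. Each of the 8 groups of genotype and day holds 3 libraries, which are the biological replicates 1, 2, and 3 of the labels, and this gives 24 libraries. The labels put each replicate number in a batch of its own, shared by all groups and named by a date, and do not say which step was done on that date. The age and sex of the mice and the number of mice per batch are not given in the labels. Values are in CPM (counts scaled to library size by TMM) and are listed for batches 1, 2, and 3 in that order. A mean is given with its SD over n = 3 libraries.

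By textbook account, IL-1α, IL-1β, IL-33, and IL-18 signal through paired receptor chains and the adaptor MyD88 to NF-κB. IL-1α and IL-33 are held in the nucleus of epithelial cells and act as alarms when the cells are damaged. IL-1β is made mainly by macrophages, and both IL-1β and IL-18 need cleavage by caspase-1. The antagonist IL-1Ra, from Il1rn, occupies the IL-1 receptor without signaling. AEC2s are known as a main source of IL-33 in the mouse lung.

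The libraries held 10184439 to 19483386 counts. Krt8 served as the check of the genotype labels, with 485 to 5092 CPM in Krt8+/+ libraries and at most 47.5 CPM in Krt8–/– libraries. The summed level of 9 AEC2 markers was 231000 to 309100 CPM on day 0 and 189 to 289 CPM on day 7. On day 1 the libraries of batch 2 stood apart, with 15250 and 14400 CPM (Krt8+/+ and Krt8–/–) against 64060 to 89120 CPM in the other 4. Macrophage RNA also differed by batch. The sum of 12 macrophage markers ran from 9.48 to 472 CPM over the 24 libraries, and its order was batch 1 above 2 above 3 in 8 of 8 groups. The markers did not all move together in culture. In Krt8+/+ AECs, Marco (log2 3.80), Itgax, Siglecf, Mrc1, Cd68, Adgre1, and Ptprc lay higher on day 7 than on day 0. C1qb (log2 −1.19), Csf1r, Chil3, and C1qa lay lower, and none of these changes was called. In bulk RNA, fewer cells of a type and less RNA per cell cannot be told apart.

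**Figure D1:**
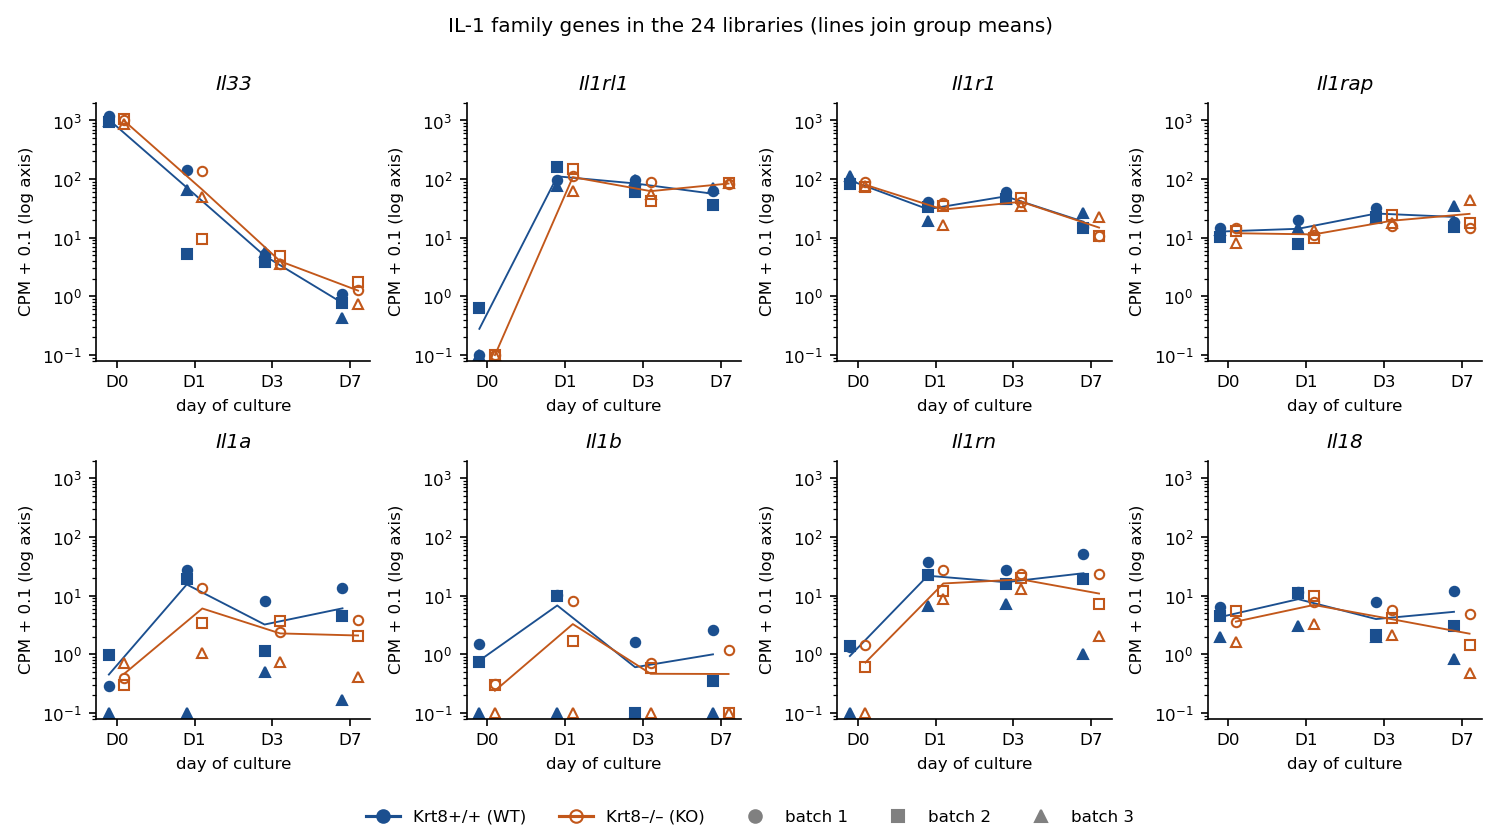
CPM of the 8 genes in the 24 libraries by day of culture (log axis, 0.1 added so that a library at 0 sits at 0.1). Filled symbols are Krt8+/+ and open symbols Krt8–/– libraries, symbol shapes are the 3 batches, and lines join group means. Il33 lies lower on each later day while Il1rl1 appears on day 1, and batch 3 lies lowest for Il18 and Il1rn in 8 of 8 groups.

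Of the 8 genes, 5 were called in Krt8+/+ AECs on day 1 against day 0, with Il1rl1, Il1rn, and Il1a higher and Il33 and Il1r1 lower. Over all 18046 genes tested, 54.7% were called in that comparison, so 5 of 8 is close to the background. The median log2 fold change of the 8 was 2.10 against 0.00 for all genes. On day 3, 5 were called (background 54.0%), with Il1rap in the place of Il1a. On day 7, 5 were called (background 58.8%), and they were those of day 1. In Krt8–/– AECs, 4 were called on day 1 (background 50.6%), 4 on day 3 (52.0%), and 5 on day 7 (58.5%). Il33, Il1r1, Il1rn, and Il1rl1 were called in the same direction in both genotypes on each of the 3 days. The genotypes do not share day 0 libraries, but the 3 days of a genotype do, and both share batches. From day 1 to day 3, 1 of 8 (Il33) was called in each genotype (background 26.3% and 23.6%), and from day 3 to day 7, 1 of 8 (Il1r1; 6.58% and 10.5%). Fewer of the 8 were called against day 0 without batch 2, with 3 (Krt8+/+, day 1), 2 (Krt8+/+, day 3), and 2 (Krt8–/–, day 3), and without batch 1, with 3 (Krt8+/+, day 3). In that last fit 7664 of all 17989 genes tested were called, against 9736 of 18046 with all batches. The share of all genes in the fits without batch 2 is not set beside these counts. Other calls against day 0 were lost too, such as Il1rn in Krt8–/– AECs on day 1 without batch 2 (adjusted p = 0.0686).

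Il33 encodes an alarm cytokine of barrier epithelium and lies on the + strand of chromosome 19 (GRCm38, chr19:29925114-29960718). It was the family member with the highest expression in fresh AEC2s and lost nearly all of it in culture. In Krt8+/+ AECs its level was 1171, 952, and 973 CPM on day 0, 146, 5.10, and 64.9 CPM on day 1, 5.18, 3.69, and 5.62 CPM on day 3, and 1.02, 0.664, and 0.331 CPM on day 7. The Krt8–/– AECs held 1004, 1053, and 872 CPM on day 0, 138, 9.34, and 50.1 CPM on day 1, 3.43, 4.70, and 3.52 CPM on day 3, and 1.20, 1.64, and 0.638 CPM on day 7. No library of a culture day reached the range of day 0. The day 7 values rest on 15, 8, and 5 counts in Krt8+/+ and 21, 21, and 10 counts in Krt8–/– AECs.

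On the log2 scale Il33 fell by 3.84 (SE 0.78, adjusted p = 0.000348) on day 1, by 7.73 (SE 0.95) on day 3, and by 10.57 (SE 1.13, adjusted p = 1.03e-07) on day 7 in Krt8+/+ AECs. The last of these is a 1520-fold lower level. Among Krt8–/– AECs it fell by 3.89 (SE 0.78) on day 1 and by 9.73 (SE 1.07) on day 7. The order of its levels was day 0, day 1, day 3, and day 7. Day 3 lay below day 1 in both genotypes (log2 −3.89, adjusted p = 0.00154, and −4.07, adjusted p = 0.00141). In Krt8–/– AECs that step was not called without batch 1 (−2.84, adjusted p = 0.0706) or batch 3 (−4.17, adjusted p = 0.0530). Day 7 against day 3 was −2.84 (adjusted p = 0.124) and −1.77 (adjusted p = 0.297), and neither passed.

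The day 1 libraries of batch 2, in which AEC2 markers were lowest, also held the least Il33, with 5.10 and 9.34 CPM. Without them the day 1 change of Il33 was −3.21 in Krt8+/+ and −3.28 in Krt8–/– AECs. The genes whose log2 CPM followed Il33 most closely over the 24 libraries were Lbp (r = 0.99), Sgpp2 (r = 0.99), and Hc (r = 0.99). These correlations describe libraries that share days and batches. Airway epithelium also carries Il33. On day 0 the 4 ciliated and club cell markers summed to 4489 to 10080 CPM for Krt8+/+ AECs. The Krt8–/– range of that day, 12200 to 17350 CPM, did not overlap with it. Most of both sums was Scgb1a1, with means of 5980 CPM (Krt8+/+) and 12950 CPM (Krt8–/–). Scgb1a1 and Scgb3a2 did not overlap between the genotypes, while Foxj1 and Tppp3 did. The share of all genes without overlap was not determined, so this separation cannot be read as a genotype effect. By day 7 the sum of the 4 markers was 16.6 to 35.9 CPM over both genotypes. The sum of 3 basal cell markers was 0.221 to 2.28 CPM on day 0 and 0.331 to 8.54 CPM on day 7 in Krt8+/+ AECs, and 0.695 to 1.92 and 4.98 to 7.46 CPM in Krt8–/– AECs. The list did not move as a whole. Mean Krt14 went from 0.38 to 4.70 CPM in Krt8+/+ and from 0.30 to 5.41 CPM in Krt8–/– AECs. Mean Krt5 was lower on day 7 than on day 0 in both, and mean Trp63 was lower in Krt8+/+ AECs only. The part of airway and basal cells in the Il33 values was not tested.

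Il1rl1 encodes ST2, the receptor chain that binds IL-33, and lies on the + strand of chromosome 1 (chr1:40429570-40465415). It rose in culture while its ligand fell. On day 0 the Krt8+/+ libraries held 0, 5, and 0 counts and the Krt8–/– libraries held none. On day 1 its level was 97.9, 159, and 77.3 CPM in Krt8+/+ AECs. In the Krt8–/– cultures of that day it was 112, 150.4, and 62.1 CPM. On day 3 the values were 96.9, 60.3, and 95.6 CPM and 90.1, 42.1, and 54.7 CPM, and on day 7 they were 62.3, 36.2, and 70.2 CPM and 81.2, 84.6, and 86.1 CPM. Each culture library lay far above each day 0 library.

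From summed counts, the day 1 level in Krt8+/+ AECs was 738 times that of day 0 (95% interval 316 to 2274, counting error only). In Krt8–/– AECs, where day 0 had no count, it was at least 1354-fold higher, with 3 counts in the whole group taken as the limit on day 0. The adjusted p for day 1 against day 0 was 3.55e-09 and 2.31e-09. The steps between the later days did not pass the test. Day 3 against day 1 was −0.40 (adjusted p = 0.460) and −0.80 (adjusted p = 0.138) on the log2 scale. Day 7 against day 3 was −0.58 (adjusted p = 0.444) in Krt8+/+ and 0.43 (adjusted p = 0.557) in Krt8–/– AECs.

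ST2 is best known on mast cells, basophils, and some lymphocytes, so their markers were read beside it. The sum of 6 mast cell and basophil markers on day 1 was at most 0.0734 CPM (Krt8+/+) and 0.807 CPM (Krt8–/–), with 4 and 3 of the 6 at 0 in every library. It was 0.738 to 0.853 and 0.493 to 1.10 CPM on day 3, and 2.06 to 13.7 and 1.60 to 4.21 CPM on day 7. Most of the day 7 sum was Mcpt8, a protease gene of basophils, which went from 0 and 1 counts on day 0 to 1 and 6 on day 1, 30 and 26 on day 3, and 239 and 140 on day 7. It was called higher on day 3 (adjusted p = 0.00496 and 0.0169) and day 7 (2.92e-05 and 0.000192) and not on day 1 (0.463 and 0.246). The sum of 8 lymphocyte markers was 0.886 to 6.23 and 1.85 to 15.04 CPM on day 0. That sum was 4.89 to 11.6 and 2.53 to 19.7 CPM on day 1 and 1.23 to 2.59 and 1.09 to 3.64 CPM on day 7. Gata3, which is among the 8, rose while the sum fell from day 1 to day 7, and it made up most of the day 7 sum. Its Krt8+/+ mean was 0.178, 0.858, 1.46, and 1.67 CPM on days 0, 1, 3, and 7. The Krt8–/– means of Gata3 on those days were 0.247, 0.378, 0.802, and 1.59 CPM. The part of these cells in the Il1rl1 values was not tested. Gene counts do not separate the membrane form of ST2 from its soluble form. Among the genes closest to Il1rl1 over the 24 libraries were Eif2s1 (r = 0.98) and Cct6a (r = 0.98). By rank these correlations were 0.74 and 0.77, and the 6 day 0 libraries lay far from the rest.

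The promoters of Il33 and Il1rl1 are shown because these genes had the 2 largest changes. RefSeq gives 2 starts for each (GRCm38.p6, 250 bases before the start, + strand, 5′ to 3′). Gene counts do not show which start was used. Capitals mark a TATA box (TATAAA), an AP-1 site (TGANTCA), or an NF-κB site, each searched on both strands. A TATA box was found in 12.3% of the 32536 distinct mouse promoter windows of this length, an AP-1 site in 6.73%, and an NF-κB site in 7.28%.
Il33, first start, chr19:29924863-29925112: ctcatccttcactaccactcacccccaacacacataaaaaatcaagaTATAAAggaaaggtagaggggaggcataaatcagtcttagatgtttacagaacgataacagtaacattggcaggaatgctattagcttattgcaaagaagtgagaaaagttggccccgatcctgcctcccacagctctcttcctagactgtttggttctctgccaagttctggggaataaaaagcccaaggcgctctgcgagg
Il33, second start, chr19:29945540-29945789: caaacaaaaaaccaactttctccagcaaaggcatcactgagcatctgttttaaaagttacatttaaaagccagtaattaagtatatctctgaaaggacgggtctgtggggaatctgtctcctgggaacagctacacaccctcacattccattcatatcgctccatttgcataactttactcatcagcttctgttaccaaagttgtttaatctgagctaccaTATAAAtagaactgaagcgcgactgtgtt
Il1rl1, first start, chr1:40429320-40429569: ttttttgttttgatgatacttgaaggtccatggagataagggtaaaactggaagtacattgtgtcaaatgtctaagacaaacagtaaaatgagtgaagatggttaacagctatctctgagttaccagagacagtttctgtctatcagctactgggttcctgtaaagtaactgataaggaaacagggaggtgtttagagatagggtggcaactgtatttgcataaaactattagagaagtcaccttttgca
Il1rl1, second start, chr1:40439379-40439628: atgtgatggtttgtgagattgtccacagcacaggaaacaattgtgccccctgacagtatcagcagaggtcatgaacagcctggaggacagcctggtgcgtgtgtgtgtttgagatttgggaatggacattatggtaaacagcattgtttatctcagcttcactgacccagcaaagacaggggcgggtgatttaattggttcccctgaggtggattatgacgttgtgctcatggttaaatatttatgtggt
The TATA box of the second Il33 window begins 29 bases before the start and that of the first window 203 bases before it. The Il1rl1 windows hold none of the 3 motifs.

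Il1r1 encodes the signaling receptor of IL-1α and IL-1β (chr1:40225080-40317257, + strand). It was present in fresh AEC2s and fell in culture. Krt8+/+ AECs held 90.5, 83.9, and 111 CPM on day 0, 40.3, 32.8, and 18.9 CPM on day 1, 59.6, 46.1, and 46.5 CPM on day 3, and 14.9, 14.6, and 26.6 CPM on day 7. Krt8–/– AECs held 90.4, 73.9, and 75.2 CPM on day 0, 38.7, 35.2, and 16.4 CPM on day 1, 40.5, 47.9, and 34.6 CPM on day 3, and 10.8, 10.8, and 22.9 CPM on day 7. The lowest day 0 library lay above the highest library of every later day in both genotypes.

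The log2 fold change of Il1r1 was −1.64 ± 0.33 (SE, adjusted p = 0.000334) on day 1, −0.91 ± 0.32 (adjusted p = 0.0228) on day 3, and −2.35 ± 0.34 (adjusted p = 5.91e-06) on day 7 in Krt8+/+ AECs. The Krt8–/– values were −1.41, −0.96, and −2.43, and each was called. Day 3 lay above day 1 in 3 of 3 batches of each genotype, by 0.73 and 0.45, but this did not pass the test (adjusted p = 0.106 and 0.342). Day 7 was below day 3 in both (log2 −1.44, adjusted p = 0.0101, and −1.47, adjusted p = 0.00625).

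The day 3 decrease of Il1r1 was not called without batch 1 (adjusted p = 0.0556 in Krt8+/+ and 0.125 in Krt8–/– AECs) or without batch 2 (0.147 and 0.0765). The step from day 3 to day 7 was not called without batch 1 (0.210 and 0.122) or batch 2 (0.193 and 0.178). Endothelial cells also carry Il1r1, and the sum of 6 endothelial markers was 18.4 to 34.2 CPM on day 0 and 2.57 to 5.04 CPM on day 7. Kdr made up most of the day 0 sum, with means of 12.6 (Krt8+/+) and 19.5 CPM (Krt8–/–). Each of the 6 had a lower mean on day 7 than on day 0, but their courses between differed. In the Krt8+/+ cultures mean Kdr was 2.17 CPM on day 1 and 10.4 CPM on day 3. Mean Pecam1 there went from 1.38 CPM on day 0 to 2.94 CPM on day 1 and 0 CPM on day 3. Fibroblasts also carry Il1r1. The sum of 7 fibroblast markers was 293.9 to 988.5 CPM on day 0 and 871.6 to 1809 CPM on day 7 in Krt8+/+ AECs. In Krt8–/– AECs it was 329.7 to 726.6 and 797.7 to 2981 CPM. On day 7 Col1a1 and Col1a2 were called higher in both genotypes, and Dcn and Lum were called lower. Col3a1 was called lower in Krt8+/+ AECs only, and Pdgfra and Tcf21 were not called. The part of endothelial cells and fibroblasts in the course of Il1r1 was not tested. The closest genes over the 24 libraries were Gsdmd (r = 0.94), C2cd5 (r = 0.93), and Kdr (r = 0.91). Gsdmd encodes the pore that releases IL-1β, and Kdr is one of the endothelial markers.

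Il1rap encodes the accessory chain shared by the receptors of IL-1 and IL-33 (chr16:26581704-26730117, + strand). It was low in every library. In Krt8+/+ AECs it was 14.3, 10.2, and 13.5 CPM on day 0, 20.3, 7.69, and 14.5 CPM on day 1, 32.6, 22.9, and 21.9 CPM on day 3, and 18.5, 15.2, and 34.1 CPM on day 7. For Krt8–/– AECs the values were 14.6, 12.8, and 8.19 CPM on day 0, 10.9, 9.73, and 13.4 CPM on day 1, 15.8, 24.8, and 17.5 CPM on day 3, and 14.4, 17.4, and 44.6 CPM on day 7. It rose on day 3 in Krt8+/+ AECs (log2 1.02, SE 0.40, adjusted p = 0.0352) and on day 7 in Krt8–/– AECs (1.10, SE 0.40, adjusted p = 0.0221). The first call was lost without batch 1 (adjusted p = 0.146) or batch 2 (0.0883), and the second without batch 3 (0.22, adjusted p = 0.669). That Krt8–/– library of batch 3 also held the highest sum of 7 fibroblast markers of all libraries, at 2981 CPM against 798 and 904 CPM in batches 2 and 1. Their part in the Il1rap value was not tested.

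The levels of Il1a, Il1b, Il1rn, and Il18 differed by batch, as the macrophage markers did. By Xist and Y-linked genes, batches 2 and 3 also differed in sex, so batch and sex cannot be told apart between them. Batch 3 was lowest in 8 of 8 groups for Il1rn and Il18, and in 7 of 8 for Il1a. For Il1b, batch 3 was alone lowest in 6 of 8 groups and tied at 0 with another in the other 2. For Il1r1, Il1rap, Il1rl1, and Il33 it was lowest in 3, 2, 2, and 3 of 8.

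**Figure D2:**
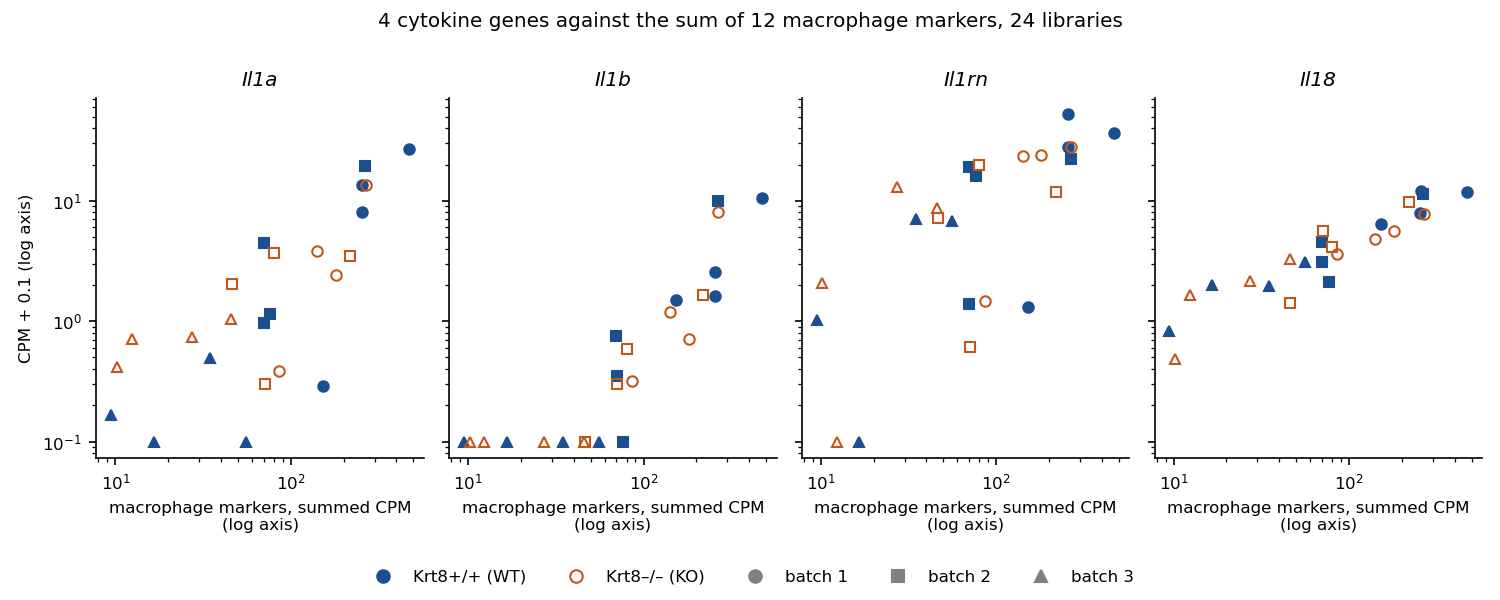
CPM of Il1a, Il1b, Il1rn, and Il18 (log axis, 0.1 added) against the summed CPM of 12 macrophage markers (log axis) in the 24 libraries. Filled symbols are Krt8+/+ and open symbols Krt8–/–, and shapes are batches. The libraries of batch 3 lie toward the left, with Il1b at 0 in each of them, while Il1rn exceeds 6 CPM in those of days 1 and 3.

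Il1a encodes IL-1α (chr2:129299610-129309972, − strand). Krt8+/+ AECs held 0.191, 0.867, and 0 CPM on day 0, 26.8, 19.5, and 0 CPM on day 1, 7.94, 1.04, and 0.397 CPM on day 3, and 13.5, 4.40, and 0.0663 CPM on day 7. Krt8–/– AECs held 0.288, 0.203, and 0.618 CPM on day 0, 13.5, 3.37, and 0.934 CPM on day 1, 2.33, 3.56, and 0.634 CPM on day 3, and 3.72, 1.95, and 0.319 CPM on day 7. The Krt8+/+ day 1 libraries of batches 1 and 2 were high, and that of batch 3 had no count. The log2 fold change was 5.49 ± 1.76 on day 1 (adjusted p = 0.0124) and 4.12 ± 1.73 on day 7 (adjusted p = 0.0464), and both passed. Neither passed without batch 1 (adjusted p = 0.108 and 0.396) or without batch 2 (0.0836 and 0.116). In Krt8–/– AECs the day 1 change was 3.94 (adjusted p = 0.0561), and with batch as a block it was called (3.32, adjusted p = 0.0349). The exons of Il1a overlap Gm14023 on the other strand, which held 34 counts in all libraries together. Il1b overlaps Il1bos (7 counts) and Il1rap overlaps Gm20319 (2 counts) in the same way.

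Il1b encodes IL-1β (chr2:129364570-129371139, − strand). It had 0 counts in all 8 libraries of batch 3, which allows at most 0.332 CPM in the shallowest of them by 3 counts. In batches 1 and 2 of Krt8+/+ AECs it went from 1.40 and 0.650 CPM on day 0 to 10.4 and 9.78 CPM on day 1, 1.51 and 0 CPM on day 3, and 2.45 and 0.249 CPM on day 7. Krt8–/– AECs went from 0.216 and 0.203 CPM on day 0 to 7.98 and 1.56 CPM on day 1, 0.617 and 0.482 CPM on day 3, and 1.09 and 0 CPM on day 7. Day 1 was the highest day in both batches of each genotype. The day 1 change was 3.19 ± 1.77 (adjusted p = 0.133) and 4.44 ± 2.11 (adjusted p = 0.0862), and neither passed. With batch as a block both were called (3.60, adjusted p = 0.0118, and 4.22, adjusted p = 0.0145). In the same fit day 3 lay below day 1 in Krt8+/+ AECs (−4.42, adjusted p = 0.00996), against −3.74 and adjusted p = 0.134 without the block.

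Il1rn encodes the receptor antagonist (chr2:24336853-24351494, + strand). It was the only one of these 4 that was called on every day in both genotypes. Krt8+/+ AECs held 1.21, 1.3, and 0 CPM on day 0, 36.7, 22.0, and 6.65 CPM on day 1, 27.7, 16.0, and 6.98 CPM on day 3, and 52.1, 19.1, and 0.928 CPM on day 7. Krt8–/– AECs held 1.37, 0.506, and 0 CPM on day 0, 27.8, 11.8, and 8.56 CPM on day 1, 23.7, 19.8, and 13.0 CPM on day 3, and 23.3, 7.09, and 1.98 CPM on day 7. The log2 fold change was 4.62 ± 1.22 (adjusted p = 0.00325) on day 1, 4.25 (adjusted p = 0.00547) on day 3, and 4.76 (adjusted p = 0.00218) on day 7. The Krt8–/– values were 4.62, 4.86, and 4.06 (adjusted p = 0.00423, 0.00270, and 0.00798). Without batch 2, 5 of these 6 calls were lost, with adjusted p values of 0.0560 to 0.0811, while the log2 values were 4.25 to 5.01. The exception was day 7 in Krt8+/+ AECs.

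In batch 3, Il1rn in Krt8+/+ AECs went from 0 counts on day 0 to 98 on day 1 and 123 on day 3, and from 0 to 110 and 184 counts in Krt8–/– AECs. The macrophage marker sum in those libraries was 16.6, 55.8, and 34.8 CPM in Krt8+/+ and 12.4, 45.9, and 27.3 CPM in Krt8–/– AECs. By day 7, when 7 of the 12 markers were at 0 in the Krt8+/+ library of batch 3, Il1rn held 14 counts there. In batch 1 the Krt8+/+ day 7 library held 52.1 CPM of Il1rn beside a marker sum of 256 CPM. Macrophages express these 4 cytokine genes, and their part in the values was not tested. Gene counts do not separate the secreted from the intracellular form of IL-1Ra.

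Il18 encodes IL-18 (chr9:50554827-50581840, + strand). It was not called on any day in either genotype. Krt8+/+ AECs held 6.36, 4.44, and 1.88 CPM on day 0, 11.7, 11.2, and 2.99 CPM on day 1, 7.81, 2.01, and 1.87 CPM on day 3, and 11.9, 2.99, and 0.729 CPM on day 7. Krt8–/– AECs held 3.53, 5.47, and 1.55 CPM on day 0, 7.62, 9.73, and 3.19 CPM on day 1, 5.55, 4.04, and 2.04 CPM on day 3, and 4.75, 1.32, and 0.383 CPM on day 7. Day 1 was above day 0 in 3 of 3 batches of each genotype, by 1.01 (95% interval −0.79 to 2.81) and 0.97 (−0.84 to 2.79) on the log2 scale.

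The genes closest to Il1a over the 24 libraries were Clec4e (r = 0.92), Cd33 (r = 0.91), and Acod1 (r = 0.90). For Il1b they were Cd48 (r = 0.91), Igsf6 (r = 0.89), and Lilra6 (r = 0.89). For Il18 they were Rac2 (r = 0.92), Fcer1g (r = 0.90), and Itgal (r = 0.89). For Il1rn they were Gpnmb (r = 0.94), Arhgef3 (r = 0.93), and Slc9a2 (r = 0.93), and for the receptor gene Il1rap Atp8b2 (r = 0.87), Acap3 (r = 0.87), and Pdzrn3 (r = 0.85). All 24 libraries share batches and days, and the values are descriptions. The Il1a promoter is shown because it was the only one of the 13 RefSeq windows of the 8 genes that holds both a TATA box and an AP-1 site (GRCm38.p6, 250 bases before the start, − strand, motifs in capitals).
Il1a, chr2:129309973-129310222: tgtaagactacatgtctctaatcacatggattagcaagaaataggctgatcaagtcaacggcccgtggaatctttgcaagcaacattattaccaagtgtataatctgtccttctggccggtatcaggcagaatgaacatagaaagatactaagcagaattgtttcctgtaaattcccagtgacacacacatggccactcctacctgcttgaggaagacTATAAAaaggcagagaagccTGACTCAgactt
The TATA box begins 32 bases and the AP-1 site 12 bases before the start. An AP-1 site was found in 2 of the 13 windows, a TATA box in 5, and an NF-κB site in 1.

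Levels of different genes were compared per length, as CPM per kb of the gene's joined exons. In fresh Krt8+/+ AEC2s, Il33 stood at 358 ± 41.9 CPM per kb, followed by Il1r1 at 15 ± 2.23 and Il18 at 4.10 ± 2.18, and these 3 did not overlap between their libraries. Il1rap was at 1.12 ± 0.193, and the other 4 had means below 0.4 CPM per kb. On day 1, Il33 (24.9 ± 24.4) and Il1rl1 (16.2 ± 6.18) overlapped between libraries. On day 7 Il1rl1 led with 8.16 ± 2.58 CPM per kb, and Il33 was lowest with 0.233 ± 0.120. In Krt8–/– AECs, Il33 was at 338 ± 32.6 on day 0 and Il1rl1 at 12.2 ± 0.360 CPM per kb on day 7. The leading gene of each of the 8 groups was the same when the longest transcript was used as the length, and the order of the genes below it was not.

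**Figure D3:**
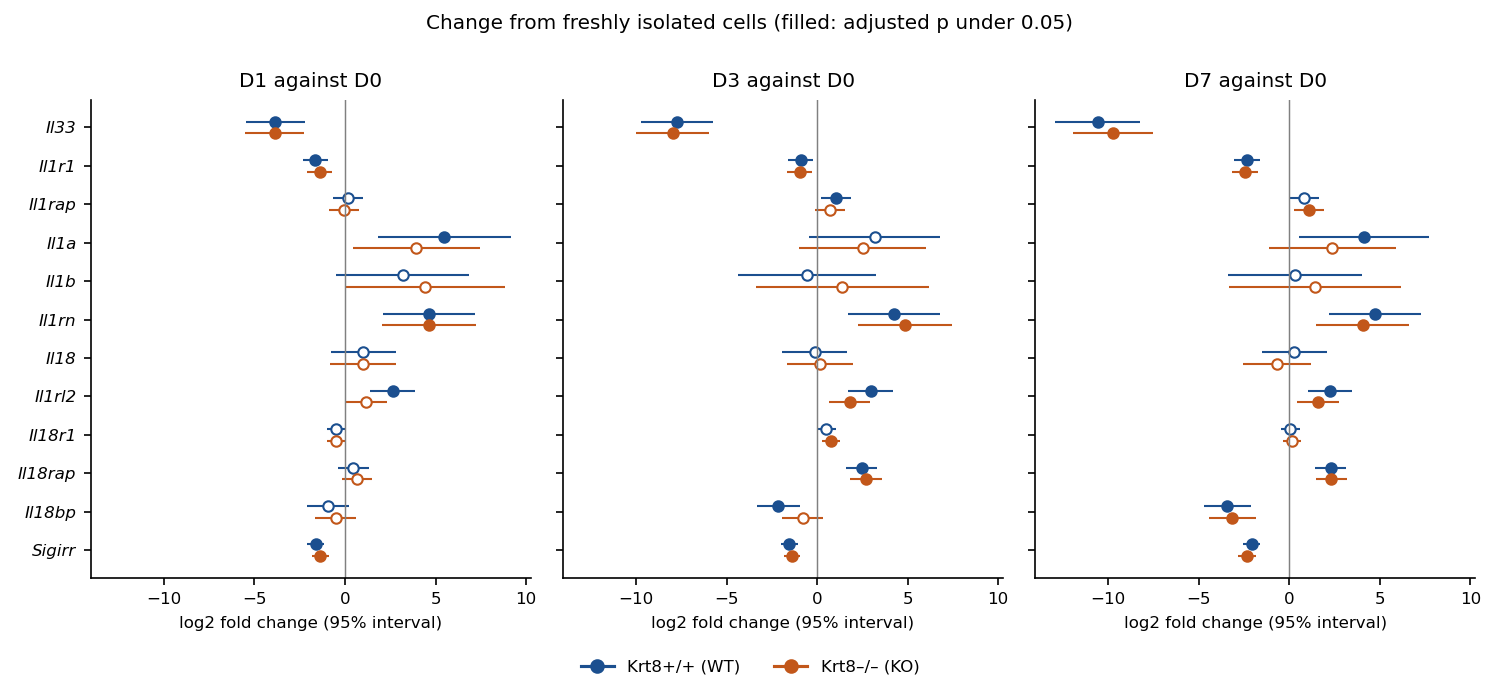
Log2 fold change against day 0 with its 95% interval for 7 of the 8 genes and 5 other receptor and binding protein genes of the family, on days 1, 3, and 7 in Krt8+/+ and Krt8–/– AECs (filled: adjusted p under 0.05). Il1rl1 and Il36g are left out because they had few or no counts on day 0. Il33, Il1r1, and Sigirr lie below 0 on each day, Il1rn above it, and the intervals of Il1a and Il1b are the widest.

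Of the 5 other ligand genes, Il36g was the only one tested. It encodes IL-36γ, an epithelial cytokine, and lies on the chromosome of Il1rn (chr2:24186476-24193568, + strand). It had 0 counts in all 6 day 0 libraries. On day 1 it reached 6.76, 24.1, and 11.2 CPM (Krt8+/+) and 12.7, 20.0, and 19.9 CPM (Krt8–/–), which is at least 153-fold and 219-fold higher than day 0. On day 3 it was at 1.18, 1.36, and 0.964 CPM and 2.47, 1.63, and 2.32 CPM, and on day 7 it was down to 4, 1, and 0 counts and 0, 0, and 1 counts. The steps down were called in both genotypes (day 3 against day 1, adjusted p = 0.000152 and 0.000482, and day 7 against day 3, adjusted p = 0.0112 and 0.000201). Its level in batch 3 was above that in batch 1 in both genotypes on day 1. Il36a, Il36b, and Il1f10 had 0 counts in the 24 libraries, and Il36rn had 1.

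A cluster of receptor genes of the family lies on chromosome 1, all on the + strand, in the order Il1r2, Il1r1, Il1rl2, Il1rl1, Il18r1, and Il18rap (chr1:40074079-40551705). Il1rl2, the IL-36 receptor, was called higher in Krt8+/+ AECs on day 1 (log2 2.63, SE 0.59, adjusted p = 0.000839) and day 7 (log2 2.24, SE 0.59, adjusted p = 0.00259). In Krt8–/– AECs it was 1.17 on day 1 (adjusted p = 0.0837) and was called on day 7 (log2 1.59, SE 0.55, adjusted p = 0.0172). Il18rap, the accessory chain of the IL-18 receptor, went from 4.13, 6.39, and 6.31 CPM on day 0 to 23.9, 36.2, and 31.7 CPM on day 3 in Krt8+/+ AECs (log2 2.46, SE 0.41, adjusted p = 4.02e-05) and was at 31.8, 38.1, and 12.5 CPM on day 7. In Krt8–/– AECs the day 3 value was log2 2.7, SE 0.42, adjusted p = 1.61e-05. Il18r1, the chain that binds IL-18, held 88.8, 97.3, and 92.4 CPM on day 0 in Krt8+/+ AECs and differed from it by 0.51 on day 3 (adjusted p = 0.0848), and in Krt8–/– AECs it rose (log2 0.76, SE 0.25, adjusted p = 0.0138). The 3′ end of Il1rl1 and the start of Il18r1 lie next to each other. On day 1, when Il1rl1 was called higher, Il18r1 differed from day 0 by −0.48 and −0.49 (adjusted p = 0.105 and 0.105). Il1r2, the decoy receptor, had at most 7 counts in a library.

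Of the inhibitors, Sigirr and Il18bp were lower on day 7, while Il1rn was higher. Sigirr, which restrains IL-1 and IL-33 receptor signaling, fell from 34.3, 41.4, and 44.8 CPM to 11.8, 8.96, and 7.82 CPM in Krt8+/+ AECs (log2 −2.07, SE 0.23, adjusted p = 1.63e-07) and from 42.9, 35.2, and 44.3 to 9.72, 9.58, and 5.04 CPM in Krt8–/– AECs (log2 −2.33, SE 0.23, adjusted p = 3.66e-08). Il18bp, which binds IL-18, fell from 5.09, 4.33, and 4.65 CPM to 0.885, 0.415, and 0 CPM in Krt8+/+ AECs (log2 −3.42, SE 0.63, adjusted p = 9.00e-05) and was called in Krt8–/– AECs as well (log2 −3.15, SE 0.62, adjusted p = 0.000193). An exon of Il18bp overlaps Numa1 on the other strand, so its counts are uncertain. Over the 5 receptor and binding protein genes tested, 4 were called on day 7 in each genotype, 2 higher and 2 lower (background 58.8% and 58.5%).

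Genes of the inflammasome and of IL-1 family cytokine processing were read from a list of 19, of which 12 passed the filter. In Krt8+/+ AECs, 8 of the 12 were called on day 1, with Capn2, Casp4, Casp8, Gsdme, and Panx1 higher and Capn1, Gsdmd, and Ninj1 lower, beside the background of 54.7%. The same 8 were called in the same directions in Krt8–/– AECs (background 50.6%). Casp1, which encodes caspase-1, and Nlrp3 were not called against day 0 on any day in either genotype. Pycard was called against day 0 only on day 7 in Krt8–/– AECs, where it was lower (log2 −3.49, adjusted p = 0.000229). Among the called genes, the largest Krt8+/+ changes on day 1 were those of Casp4, the sensor of intracellular LPS (log2 3.00, SE 0.49), Panx1, a membrane channel (1.98, SE 0.18), and Capn2, a calpain, a protease family that cleaves IL-1α (1.71, SE 0.10). Capn2 rose from 138 ± 4.21 CPM on day 0 to 769 ± 44.9 CPM on day 7. Gsdmd fell from 29.6 ± 4.11 CPM on day 0 to 14.6 ± 1.92 CPM on day 1 and 8.32 ± 1.54 CPM on day 7 (log2 −1.83, SE 0.26). The median of the 12 was 1.05 on day 1 and 0.39 on day 7, against 0.00 for all genes on both days. Without batch 3, 5 of the 12 were called on day 1, and the share of all genes in that fit is not set beside this count. Casp8, Gsdme, Capn1, and Ninj1 are named as called genes and were picked after their values were seen, as were Casp1, Nlrp3, and Pycard.

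Signaling genes from MyD88 to the IKK complex moved in both directions. All 21 were tested, and 10 were called in Krt8+/+ AECs on day 1 (6 higher, 4 lower, background 54.7%) and 9 on day 7 (4 higher, 5 lower, background 58.8%), so neither share was above that of all genes. In Krt8–/– AECs 11 were called on day 1 (background 50.6%) and 10 on day 7 (58.5%). Myd88, the adaptor itself, fell from 80.7 ± 5.92 CPM on day 0 to 48.3 ± 1.65 CPM on day 1 and 21.6 ± 5.50 CPM on day 7 (log2 −1.90, SE 0.18). Map3k8, a kinase of the MAP kinase branch, rose on day 1, from 4.97 ± 2.26 to 37.6 ± 26.1 CPM (log2 2.90, SE 0.56), and was at 3.54 ± 1.80 CPM on day 3. Irak3, an inhibitor of the pathway, rose on day 1 (log2 2.55, SE 0.60), as did Ikbkg, the regulatory subunit of IKK (1.94, SE 0.14). Tab1, a partner of the kinase TAK1, fell by 1.16 on day 1. The ubiquitin ligases Peli1 and Peli3 fell by 0.88 and 2.20 on day 7. The median of the 21 was −0.07 on day 1 and −0.08 on day 7, beside 0.00 for all genes.

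**Figure D4:**
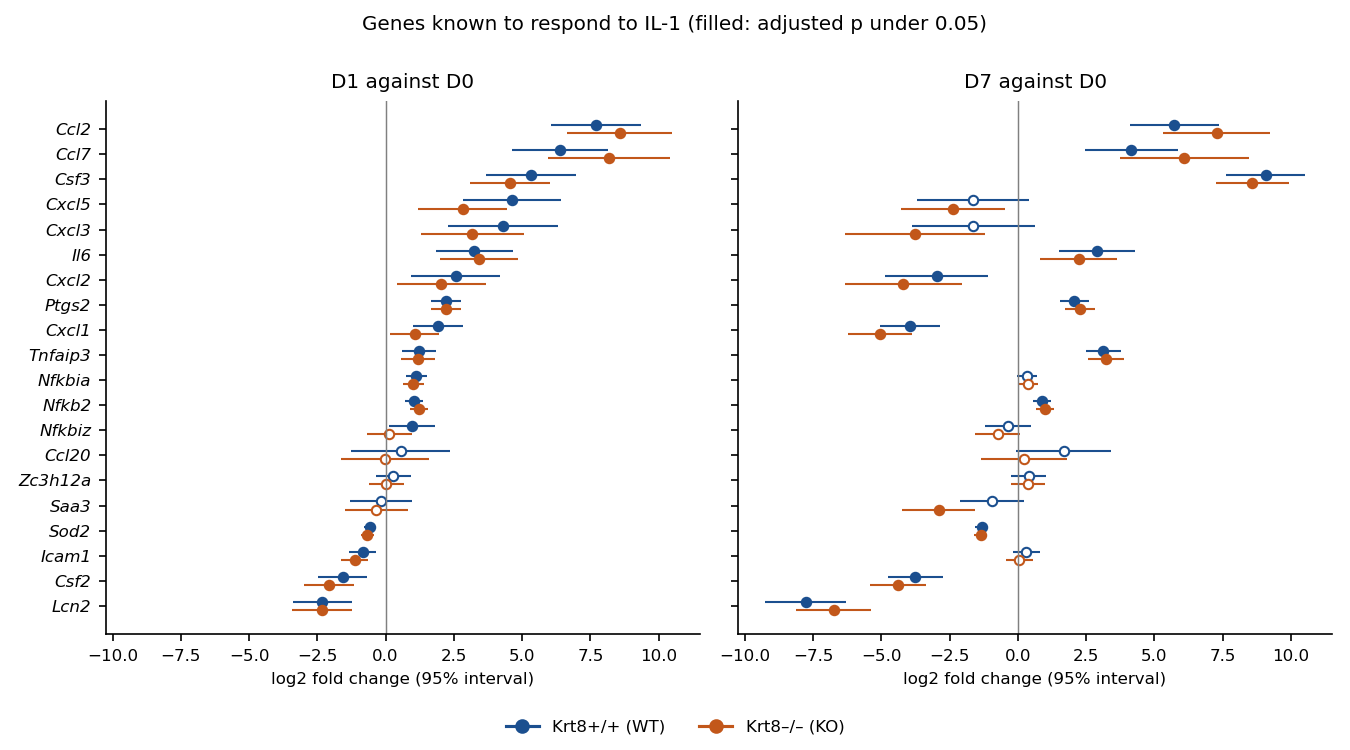
Log2 fold change with its 95% interval for 20 genes known to respond to IL-1, on day 1 (left) and day 7 (right) against day 0, in Krt8+/+ and Krt8–/– AECs (filled: adjusted p under 0.05), ordered by the Krt8+/+ value on day 1. The neutrophil chemokine genes Cxcl1 and Cxcl2 lie above 0 on day 1 and below it on day 7, while Ccl2, Ccl7, and Csf3 lie above 0 on both days.

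Of 20 genes known to respond to IL-1, which other stimuli can also induce, 17 were called in Krt8+/+ AECs on day 1 (13 higher, 4 lower) beside the background of 54.7%. In Krt8–/– AECs, 16 were called (12 higher, 4 lower, background 50.6%). On day 7, 12 were called in Krt8+/+ AECs, close to the background of 58.8%, and 15 in Krt8–/– AECs (58.5%). Their Krt8+/+ median was 1.17 on day 1 and 0.33 on day 7, beside 0.00 for all genes. Ccl2, a monocyte chemokine, went from 0.312 ± 0.283 to 68.8 ± 13.3 CPM (log2 7.70, SE 0.79), and the related Ccl7 from 0.412 ± 0.360 to 36.7 ± 9.78 CPM (log2 6.38, SE 0.84). Cxcl5, a neutrophil chemokine, was at 26.0 ± 12.7 CPM on day 1 and 1.09 ± 0.687 CPM on day 3, from 1.04 ± 0.331 CPM on day 0. Csf3, which encodes G-CSF, had 1 count in the day 0 Krt8+/+ libraries and 851 on day 7, a ratio of 691 (95% interval 124 to 27340, counting error only). Lcn2, an iron-binding defense protein that AEC2s make, fell from 286 ± 55.9 CPM on day 0 to 1.32 ± 0.809 CPM on day 7 (log2 −7.77, SE 0.71). The list was chosen with results of these data known, so its direction is not independent evidence.

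The study asked whether keratin 8 regulates the cytokines of transitional AECs. None of the 8 genes was called between genotypes by edgeR on day 0, 1, 3, or 7, over days 1 to 7, or in the test of genotype by day, and none had an unadjusted p under 0.05. In the same order, 479, 638, 452, 255, 520, and 268 of the 18046 genes had one. Over all genes, 0.0277% were called on day 0 (5 genes), 0.0166% on each of days 1, 3, and 7 (3 genes), 0.0277% over days 1 to 7 (5 genes), and 0.00554% by day (1 gene). DESeq2 called 0 of the 8 in the same comparisons and 9, 5, 8, 3, 17, and 3 of all genes. Adjusted p was 1.00 for each of the 8 genes in each of them.

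Over days 1 to 7 the intervals were narrower for the 3 receptor genes than for the 5 ligand genes. The log2 difference of Krt8–/– from Krt8+/+ AECs was −0.03 for Il1rl1 (95% interval −0.53 to 0.46). It was −0.27 for Il1r1 (−0.69 to 0.15) and −0.20 for Il1rap (−0.71 to 0.30). The intervals reached to 1.62-fold lower for Il1r1, 1.63-fold lower for Il1rap, and 1.44-fold lower for Il1rl1. Il1a, Il1b, Il1rn, and Il18 lay lower in Krt8–/– AECs, by 1.01, 0.79, 0.38, and 0.47, but the intervals reached 7.01-fold lower and 1.73-fold higher for Il1a and 9.33-fold lower and 3.10-fold higher for Il1b. With 3 batches, differences within these bounds were not excluded. For Il33 the difference was 0.07 (−1.14 to 1.29). On day 7 the Il1rl1 libraries of the genotypes did not overlap, with Krt8–/– higher by 0.58 (−0.22 to 1.37). On day 3 the order of the Il1rl1 means was the reverse, with 84.3 CPM for Krt8+/+ and 62.3 CPM for Krt8–/– libraries. The share of all genes without overlap was not determined, so the day 7 separation cannot be read as a genotype effect.

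**Figure D5:**
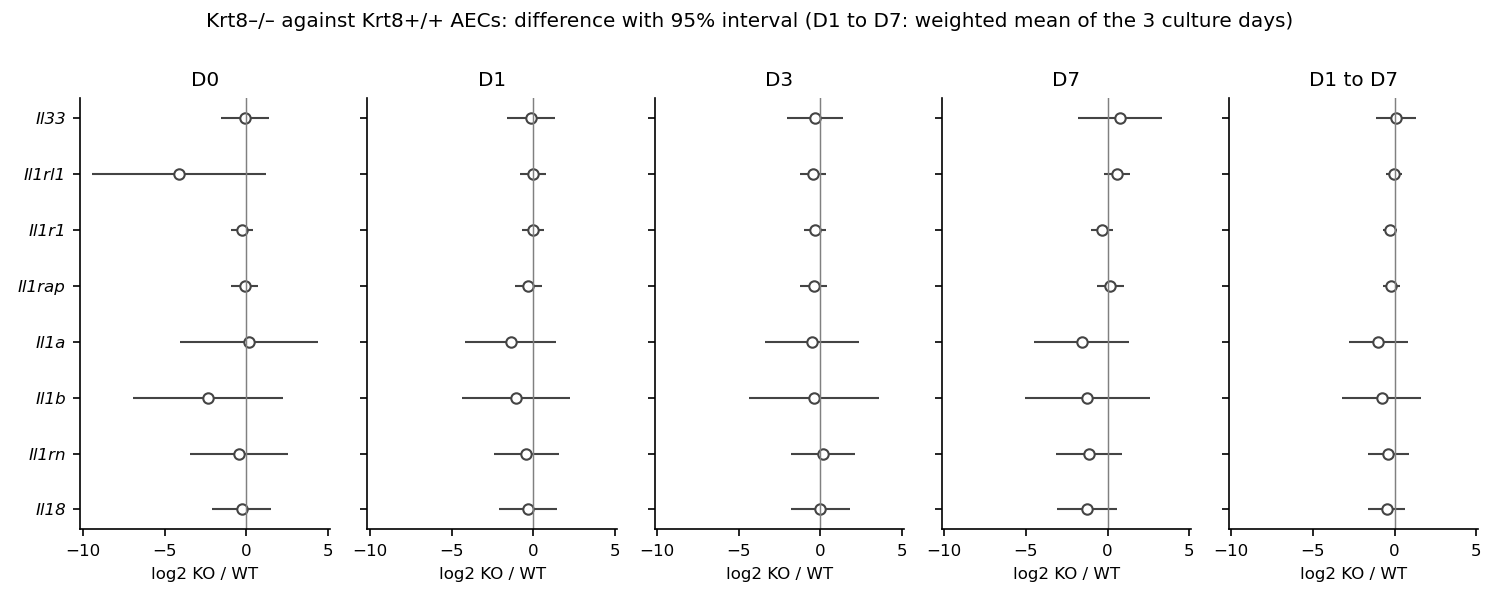
Log2 difference between Krt8–/– and Krt8+/+ AECs with its 95% interval for the 8 genes on each day and over days 1 to 7 (a weighted mean of the 3 culture days). Each interval includes 0. Il1rl1 has the widest one on day 0, where it had few or no counts, and Il1b has the widest one over days 1 to 7.

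Macrophage markers moved with the same libraries. On day 7 their sum was 256, 70.2, and 9.48 CPM in Krt8+/+ and 142, 46.3, and 10.2 CPM in Krt8–/– AECs. Their part in the genotype values was not tested. Sex also differed within batch 1. Its Krt8+/+ libraries held 62.4 to 79.5 CPM of Xist and at most 0.441 CPM of 4 Y-linked genes. Its Krt8–/– libraries held 5.92 to 11.95 CPM of Xist and 173 to 191 CPM of the Y-linked genes. Genotype and sex cannot be told apart there. In both genotypes, batch 2 held at least 42.7 CPM of Xist and at most 0.241 CPM of the Y-linked genes. Batch 3 held at most 2.24 CPM of Xist and 174 to 229 CPM of the Y-linked genes in both. Without batch 1 the differences over days 1 to 7 were 0.10 for Il1a, 0.72 for Il1b, and 0.08 for Il1rap, each of the opposite sign to the value with all batches. Of the lists, 0 of 12 processing, 0 of 21 signaling, and 0 of 20 responsive genes were called over days 1 to 7. That was by edgeR, with 1, 0, and 2 at an unadjusted p under 0.05. Of all 18046 genes, 520 had an unadjusted p under 0.05 in that comparison and 5 were called. By t tests on ratios of the area under the time course, the paper reports several attenuated chemokines in Krt8–/– AECs, Ccl2 among them. It also reports less CCL2 protein in the lavage of Krt8–/– mice given bleomycin. The values here are weighted means of log2 differences, a different measure. By it Ccl2 was at log2 −0.64 (edgeR, unadjusted p = 0.0587), Ccl7 at −0.98 (0.0179), and Saa3 at −1.35 (0.00325). Each was lower in 3 of 3 batches. Other responsive genes, such as Ccl20 (0.57) and Lcn2 (1.01), were higher in 3 of 3.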

How the data were processed

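RNA was measured by sequencing in 24 AEC2 libraries. The authors deposited whole-number read counts per Ensembl gene, not normalized. The submitters' processing notes name cutadapt 2.3, STAR 2.7.8a, RSEM 1.3.3, and GRCm38. The strand setting and the exact counting step are not stated in the labels or methods, so the counts may be rounded estimates, and reads of overlapping genes on opposite strands cannot be told apart. Total counts were 10184439 to 19483386 per library. Symbols came from GENCODE M21, which named 55154 of 55421 identifiers; identifiers without a symbol held at most 0.0644% of counts. The 5 reporter rows of the table had 0 counts and were left out.

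Genes were kept by filterByExpr (count minimum 10, total minimum 15), scaled by TMM, and tested by the quasi-likelihood test of edgeR 4.0.16 (R 4.3.3) in one model of 8 groups with 16 residual degrees of freedom. P values were adjusted by the Benjamini-Hochberg method over the 18046 genes tested, and a change was called at an adjusted p under 0.05. Intervals are 95%. The contrast over days 1 to 7 weights days 1, 3, and 7 by 0.167, 0.5, and 0.333, after the area under the time course that the study used. Alternatives were DESeq2 1.42.0 size factors and tests, no filter, a block for batch, leaving out each batch, and a fit of the libraries compared only. The fit was tested on simulated data.

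The labels give each biological replicate number a batch of its own, named by a date and shared by both genotypes and all days, so the numbers pair the samples. What was done on that date is not stated in the labels. Deviations from group means correlated between same-numbered libraries by 0.06 to 0.55 (median 0.39, 12 pairs) across genotypes and by −0.03 to 0.38 (median 0.17, 30 pairs) across days. No libraries of a group held the same values, and they differed by more than sampling noise (chi-square per gene 9.68 to 114). P values measure the spread between batches. Promoters came from RefSeq (GRCm38.p6), and all 8 genes matched.

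The 8 genes and the lists were chosen with earlier results of these data known. From the processing, signaling, and responsive lists, the text names up to 4 genes with the largest Krt8+/+ change on day 1 and on day 7, among those called with the same direction in 3 of 3 batches and a group mean of at least 1 CPM. For each of the 8 genes, the 3 genes with the highest Pearson correlation of log2 CPM (prior count 2) are named, except 1 that is not reported here. Other genes were picked after their values were seen.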

Additional observations from a re-analysis of the deposited data

How the results depend on the processing

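Of 991 values of the 8 genes under the alternatives, 903 kept their direction and their side of the threshold, 20 passed where the reported value did not, 23 no longer passed, and 45 changed sign, none of them a called change. With DESeq2 size factors in place of TMM, all 120 values kept direction and call. The log2 value changed sign when a batch was left out in the following comparisons, given as the range over the batches. For Il33 it was −0.20 to 0.000269 (genotypes on day 0) and −0.20 to 0.26 (genotypes over days 1 to 7). For Il1rl1 it was −0.71 to 0.14 (Krt8+/+ day 3 against 1), −0.15 to 0.0285 (genotypes on day 1), and −0.14 to 0.13 (genotypes over days 1 to 7). For Il1r1 it was −0.10 to 0.0157 (genotypes on day 1). For Il1rap it was −0.0922 to 0.40 (Krt8+/+ day 1 against 0), −0.72 to 0.14 (Krt8+/+ day 7 against 3), −0.41 to 0.18 (Krt8–/– day 1 against 0), −0.35 to 0.81 (Krt8–/– day 7 against 3), −0.30 to 0.16 (genotypes on day 0), −0.51 to 0.0555 (genotypes on day 1), −0.0802 to 0.33 (genotypes on day 7), and −0.40 to 0.0793 (genotypes over days 1 to 7). For Il1a it was −0.92 to 0.45 (Krt8–/– day 7 against 3), −0.88 to 1.88 (genotypes on day 0), −1.50 to 1.56 (genotypes on day 3), and −1.47 to 0.0955 (genotypes over days 1 to 7). For Il1b it was −5.18 to 0.0873 (Krt8+/+ day 3 against 0), −1.43 to 0.78 (Krt8+/+ day 7 against 0), −3.44 to 2.31 (Krt8–/– day 7 against 0), −4.80 to 0.81 (Krt8–/– day 7 against 3), −1.26 to 4.80 (genotypes on day 3), and −1.07 to 0.72 (genotypes over days 1 to 7). For Il1rn it was −0.21 to 0.71 (Krt8+/+ day 7 against 3) and −0.00585 to 0.52 (genotypes on day 3). For Il18 it was −0.70 to 0.31 (Krt8+/+ day 3 against 0), −0.79 to 0.67 (Krt8+/+ day 7 against 0), −0.0821 to 0.61 (Krt8+/+ day 7 against 3), −0.19 to 0.66 (Krt8–/– day 3 against 0), −2.04 to 0.10 (Krt8–/– day 7 against 0), −0.72 to 0.13 (genotypes on day 0), and −0.36 to 0.65 (genotypes on day 3). The replicate block, which fits the batch shared by the libraries, gave −0.0366 for Il18 (Krt8+/+ day 7 against 0), −0.00339 for Il1rn (Krt8+/+ day 7 against 3), −0.47 for Il1b (Krt8–/– day 7 against 3), 0.0131 for Il1a (genotypes on day 3), 0.12 for Il1b (genotypes on day 3), and 0.12 for Il18 (genotypes on day 3). DESeq2 gave −0.0166 for Il1b (Krt8–/– day 7 against 3), and a fit of only the libraries compared gave 0.0166 for Il1rap (Krt8–/– day 1 against 0). The cause of these changes was not tested.

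The count of the 8 genes that was called ranged over left-out batches from 3 to 5 (Krt8+/+ day 1 against day 0), from 2 to 6 (Krt8+/+ day 3), from 2 to 5 (Krt8–/– day 3), and from 0 to 1 in Krt8+/+ day 7 against 3 and in Krt8–/– day 3 against 1 and day 7 against 3. It was 2 in Krt8+/+ day 7 against 3 by DESeq2, without the filter, and with only the libraries compared, 2 in Krt8–/– day 7 against 3 with only the libraries compared, and 2 in Krt8+/+ day 3 against 1 with the replicate block. Processing genes called in Krt8+/+ AECs on day 1 ranged from 5 to 6. The share of all genes is not set beside the counts against day 0 in this paragraph. Other comparisons with day 0 in which the count changed are not listed. Without the day 1 libraries of batch 2, a choice made after seeing the data, 47 of 48 values of the 8 genes kept direction and call, and Il1rap (Krt8–/– day 1 against 0) changed sign to 0.14.

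Over all genes, calls ranged over left-out batches from 2614 to 3085 (Krt8+/+ day 3 against 1), 325 to 572 (Krt8+/+ day 7 against 3), 1842 to 2691 (Krt8–/– day 3 against 1), and 834 to 969 (Krt8–/– day 7 against 3), with fewer libraries in each fit. With only the libraries compared, 2879 were called in Krt8+/+ day 3 against 1. Between genotypes the ranges were 2 to 5 on days 0, 1, and 7, and 3 to 5 on day 3, and the 1 call of genotype by day was lost when any batch was left out (0 each time). DESeq2 called 9 on day 0, 5 on day 1, 8 on day 3, 17 over days 1 to 7, and 3 by day, and without the filter 10, 6, 11 (over days 1 to 7), and 2 (by day) were called, in place of 5, 3, 5, and 1. The replicate block gave 9 over days 1 to 7. A fit of the libraries compared only is the fit of all libraries for genotype by day, and it gave no value for 17 comparisons of low genes that did not pass its filter.

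Low counts limited Il1a and Il1b, whose intervals between genotypes over days 1 to 7 were the widest of the 8, and Il33 on day 7. With 3 batches per group, leaving out one leaves 2 libraries a group, and the sex of the cells in batch 1 differed between genotypes. Sums of marker genes do not measure the share of cells of a type.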

Other observations

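Marker lists that the text does not use beside a gene had the following sums. Over the 24 libraries, 7 neutrophil markers summed to 0.0663 to 4.90 CPM. The sum of 6 AEC1 markers was 2387 to 3537 CPM on day 0, 604 to 1122 CPM on day 1, and 1315 to 2371 CPM on day 7. Ager and Aqp5 made up most of the day 0 sum, and the list did not move as a whole. In Krt8+/+ AECs their means went from 1909 to 984 CPM and from 699 to 102 CPM by day 7. Hopx, Pdpn, Cav1, and Rtkn2 were called higher on day 7 in both genotypes. Pdpn, for example, went from 3.13 ± 1.27 to 81.9 ± 26.7 CPM in Krt8+/+ AECs. The sum of 6 transitional state markers, which include Krt8, was 875 to 984 CPM on day 0 and 6967 to 8529 CPM on day 1 in Krt8+/+ AECs, and 417 to 500 and 4140 to 5470 CPM in Krt8–/– AECs.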
